A study of Mus musculus with 12 samples.

Results

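The plasma cell programme was followed through 10 genes: Prdm1, Xbp1, Irf4, Bhlha15, Ell2, Eaf2, Creb3l2, Mzb1, Txndc5 and Sdc1. They were taken by symbol from a count table of 56941 genes, and each of the 10 matched 1 row. RNA came from 12 libraries of CH12F3-2A, a B lymphoma line of mouse origin whose IgM-bearing cells can be made to switch to IgA. Cells received the Cas9 plasmid pX459 with a guide that targets Nop16 (sgNop16) or one without a target (sgCtr), followed by 72 h of puromycin selection. Each guide was then left without stimulation (sgCtr_no, sgNop16_no) or given CIT for 24 h (sgCtr_CIT, sgNop16_CIT). CIT held anti-CD40L at 1 μg/ml, IL-4 at 20 ng/ml and TGF-β at 1 ng/ml. There were 3 libraries a group, described by the submitters as biological replicates. All 4 groups went through transfection and selection, so none is an untouched culture, and a single guide stands for Nop16. NOP16 is a nucleolar protein, and the series title concerns class switching. The comparisons here ask how the plasma cell genes stood with CIT and with the Nop16 guide.

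A B cell that becomes an antibody-secreting plasma cell changes its transcription factors and enlarges its secretory pathway. IRF4 and Blimp-1, the product of Prdm1, start and hold this change, and Blimp-1 represses genes of the B cell state. XBP1 is made active by IRE1, which splices its mRNA, and then raises genes of protein folding and export. The same activated B cell can instead stay in the B cell state and switch its antibody class. CH12F3-2A cells are used as a model of this switch.

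Levels are given in CPM, counts scaled to the size of the library with TMM factors, with the SD over 3 libraries. A gene is called (rose, fell, higher or lower) where the adjusted p of edgeR's quasi-likelihood test was under 0.05 over 16794 tested genes. Log2 differences carry the model's SE. Of the 10 genes, 9 passed the filter on low counts, and Sdc1 did not. The total count per library was between 38866418 and 48615177. Nop16 itself was lower with its guide, with 85.7 ± 3.10 CPM in sgNop16_no, 106.3 ± 2.35 CPM in sgCtr_no, 65.7 ± 0.930 CPM in sgNop16_CIT and 77.1 ± 3.46 CPM in sgCtr_CIT (n = 3 each). The guide difference was -0.31 ± 0.04 without and -0.23 ± 0.04 with CIT on the log2 scale (adjusted p = 0.000563 and 0.00455). How many cells carried an edit cannot be read from mRNA. The B cell markers Cd79a, Cd79b, Ms4a1, Pax5 and Ighm were counted in every group. Of 8 T cell markers 3 to 5 were at 0 in each group, of 8 macrophage markers 3 to 5, of 6 fibroblast markers 4 or 5 and of 6 erythroid markers 2 or 3. The summed levels of these lists lay between 0.526 and 2.60 CPM, 7.88 and 18.3 CPM, 0.333 and 0.919 CPM, and 1.65 and 3.63 CPM in the same order. Macrophage markers were higher in the stimulated libraries (11.9 to 18.3 CPM) than in the unstimulated ones (7.88 to 10.9 CPM), with Lyz2 and C1qa at 0 in each group. They were also higher with the Nop16 guide, at 9.54 to 10.9 against 7.88 to 9.004 CPM without CIT and 16.1 to 18.3 against 11.9 to 15.1 CPM with CIT. T cell markers were lower in the stimulated libraries (0.526 to 0.871 CPM) than in the unstimulated ones (1.61 to 2.60 CPM), with Trbc1 and Cd2 at 0 in each group. Their part in the results was not tested.

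The windows of 250 bases before the RefSeq transcription start (build GRCm38.p6) are shown for the 3 master regulators and for Creb3l2, which moved together with Xbp1 in 4 contrasts. They are written 5′ to 3′ on the gene's strand, and capitals mark matches on either strand to the motifs named after them.
Prdm1 (chr10:44458749-44458998, minus strand): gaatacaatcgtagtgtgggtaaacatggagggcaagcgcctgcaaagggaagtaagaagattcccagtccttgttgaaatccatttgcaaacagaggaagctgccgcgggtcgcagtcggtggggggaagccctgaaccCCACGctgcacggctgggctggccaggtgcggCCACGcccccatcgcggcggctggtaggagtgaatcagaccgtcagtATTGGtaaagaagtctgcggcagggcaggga
Irf4 (chr13:30748983-30749232, plus strand): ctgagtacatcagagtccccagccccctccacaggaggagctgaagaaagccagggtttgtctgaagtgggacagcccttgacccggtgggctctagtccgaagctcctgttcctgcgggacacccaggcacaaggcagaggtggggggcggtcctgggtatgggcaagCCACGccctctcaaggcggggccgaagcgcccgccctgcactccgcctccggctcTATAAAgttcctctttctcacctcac
Xbp1 (chr11:5520391-5520640, plus strand): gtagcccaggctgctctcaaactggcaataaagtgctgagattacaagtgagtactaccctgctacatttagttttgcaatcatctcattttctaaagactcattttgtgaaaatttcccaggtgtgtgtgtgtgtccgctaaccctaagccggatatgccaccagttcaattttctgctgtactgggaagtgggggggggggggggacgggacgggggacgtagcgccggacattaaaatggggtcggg
Creb3l2 (chr6:37442149-37442398, minus strand): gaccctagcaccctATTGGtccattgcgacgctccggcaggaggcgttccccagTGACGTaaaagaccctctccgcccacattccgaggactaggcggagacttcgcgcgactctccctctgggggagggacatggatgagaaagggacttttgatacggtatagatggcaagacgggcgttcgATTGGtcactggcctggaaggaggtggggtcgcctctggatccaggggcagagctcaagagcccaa
The motifs CCAAT and CCACG form the endoplasmic reticulum stress element where 9 bases lie between them, and all 3 were searched. The core of CREB type sites, TGACGT, was searched too, with the core ACGTGG of ATF6 and XBP1 type sites. Their joint form TGACGTGG holds both of them and, on the other strand, a CCACG. The last of the 8 were the TATA box TATAAA and a pair of GAAA with 2 bases between, of the IRF type. Prdm1 held 2 CCACG matches and 1 CCAAT match, Irf4 1 CCACG match and a TATAAA at positions -26 to -21 from the start. Creb3l2 held 2 CCAAT matches and 1 TGACGT match, and the Xbp1 window none of the 8 motifs. Of all 32851 RefSeq windows of this length, 33.8% held CCAAT, 28.3% CCACG, 12.4% TATAAA, 6.91% ACGTGG, 6.47% TGACGT, 2.98% the GAAA pair, 0.563% TGACGTGG and 0.113% the full stress element. Among the other members with a window, Ell2 held 3 TGACGT matches, 2 of them overlapping at positions -198 to -191, and 1 of the 3 Txndc5 start sites held TGACGTGG at positions -138 to -131.

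CIT split the programme. In sgCtr cells Irf4, Xbp1 and Creb3l2 rose, and Prdm1, Txndc5, Eaf2, Ell2 and Mzb1 fell. That is 8 of the 9 tested, 3 higher and 5 lower, where 41.4% of all tested genes were called, 20.4% higher and 20.9% lower. The libraries of the groups did not overlap for 8 of 9, against 50.6% of all tested genes. In sgNop16 cells Irf4, Xbp1, Creb3l2, Bhlha15 and Mzb1 rose and Prdm1, Txndc5, Eaf2 and Ell2 fell, all 9 tested, where 37.0% of all tested genes were called, 18.9% higher and 18.2% lower. Here 9 of 9 did not overlap, against 47.0%. The median log2 change over the 9 was -0.09 with sgCtr and 0.19 with sgNop16, beside 0.018 and 0.012 over all tested genes. The changes with the largest size were those of Prdm1, the repressor at the head of the programme, which went down as its partner Irf4 went up. In bulk RNA, a change in the share of cells that express a gene and a change in RNA per cell cannot be told apart.

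Before stimulation, some of the programme was lower with the Nop16 guide. Bhlha15, Creb3l2, Xbp1 and Mzb1 were called lower and none of the 9 higher, where 3.32% of all tested genes were called, 1.53% lower and 1.79% higher. At an unadjusted p under 0.05 there were 6 lower and 1 higher, which was Ell2, where 14.6% of all tested genes were under it in either direction. DESeq2 called 5 lower, Prdm1 among them, and 0 higher. The libraries did not overlap for 7 of 9, against 18.8% of all tested genes. With CIT the members divided, with Creb3l2 and Xbp1 lower and Irf4 and Mzb1 higher, where 6.16% of all tested genes were called, 2.77% lower and 3.39% higher. Here 4 of 9 did not overlap, against 24.1%. The median guide difference over the 9 was -0.17 without CIT and -0.07 with CIT, beside medians of 0.0 and 0.008 over all tested genes. Both guide contrasts share libraries with the CIT responses, so the 4 sets of values are not independent. The guide calls with CIT depended on single libraries: 4 members were called with all 12 libraries, and 0 without sgCtr_CIT library 1 or 3. There were 2 calls without sgCtr_CIT library 2 or sgNop16_CIT library 1, and 1 without sgNop16_CIT library 2 or 3.

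**Figure D1:**
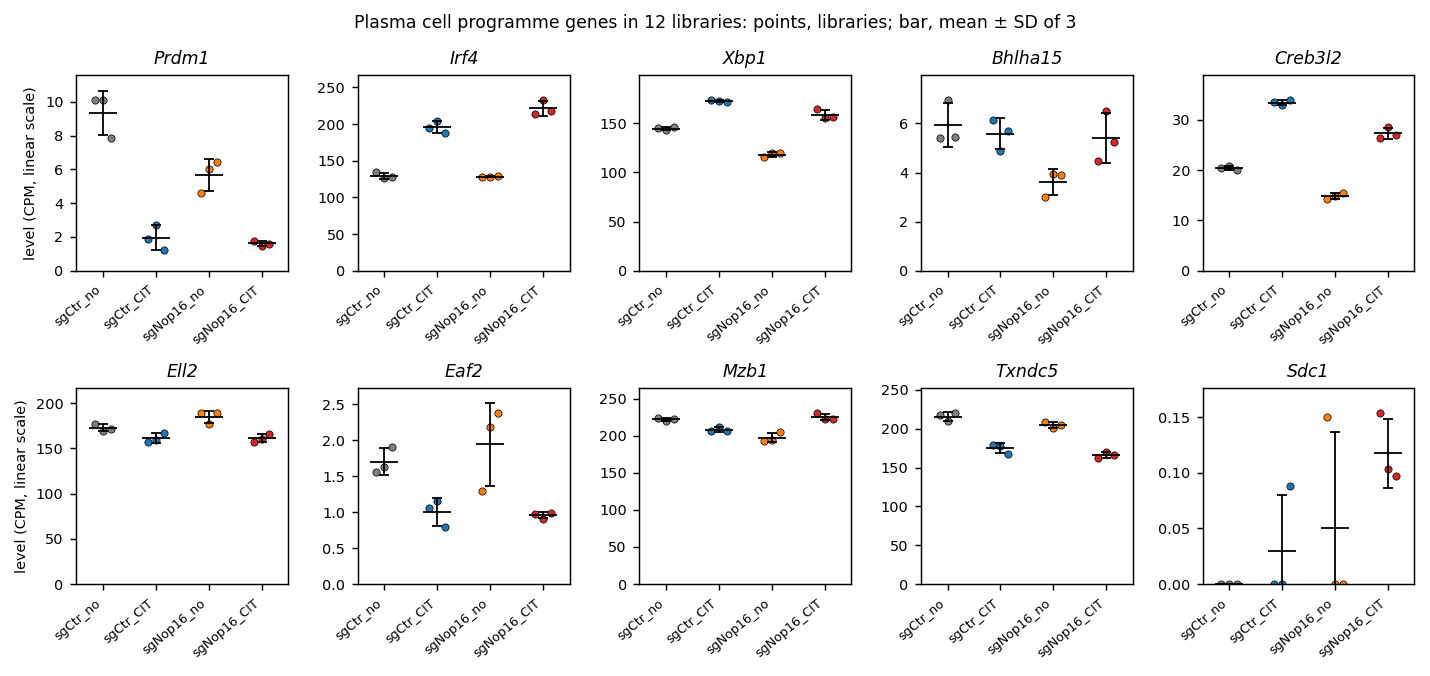
Level of each of the 10 genes in CPM (linear axis from 0, its range set per gene) in the 4 groups; each point is a library and the bar is the mean ± SD of 3. Prdm1 drops from 7.83 to 10.1 CPM in sgCtr_no to 1.23 to 2.72 CPM in sgCtr_CIT, while Irf4 rises with both guides and Sdc1 is at most 0.153 CPM.

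Prdm1 (ENSMUSG00000038151), which encodes Blimp-1, stood at 10.1, 10.1 and 7.83 CPM in sgCtr_no and at 1.90, 2.72 and 1.23 CPM in sgCtr_CIT. In sgNop16 cells it was at 4.61, 6.02 and 6.43 CPM without CIT and at 1.76, 1.48 and 1.60 CPM with CIT. All stimulated libraries lay below all unstimulated ones, and without CIT the sgNop16 libraries lay below the sgCtr libraries. CIT lowered it 4.78-fold in sgCtr (log2 change -2.26 ± 0.24, adjusted p = 8.89e-07) and 3.53-fold in sgNop16 cells (-1.82 ± 0.24, adjusted p = 1.4e-05). The guide difference without CIT, -0.72 ± 0.22, was not called (adjusted p = 0.104, and from 0.0349 to 0.318 with other processing). DESeq2 called it, and so did the fits on counts divided by 4, on the unstimulated libraries alone and without sgCtr_CIT library 3. With CIT the guide difference was -0.28 ± 0.25, with a 95% interval of -0.76 to 0.21, and it was 0.04 without sgCtr_CIT library 2. Prdm1 was thus a weakly expressed gene here, and its groups after CIT rest on 56 to 129 counts per library. If 1 sequenced fragment is worth about 4 counts, they rest on fewer fragments than that. Its calls for CIT held with counts divided by 4.

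Irf4 (ENSMUSG00000021356) encodes the transcription factor that acts at low dose in switching B cells and at high dose in plasma cells. It was at 134, 126 and 128 CPM in sgCtr_no and at 194, 204 and 188 CPM in sgCtr_CIT. In sgNop16 cells the values were 128, 128 and 129.6 CPM without CIT and 214, 233 and 218 CPM with CIT. Stimulated and unstimulated libraries did not overlap, and with CIT every sgNop16 library lay above every sgCtr library. CIT raised Irf4 1.51-fold in sgCtr (0.60 ± 0.04, adjusted p = 3.42e-09) and 1.72-fold in sgNop16 cells (0.79 ± 0.04, adjusted p = 1.26e-10). The guide difference was -0.01 ± 0.04 without CIT (95% interval -0.09 to 0.07) and 0.18 ± 0.04 with CIT (adjusted p = 0.0127). The latter call ended without sgCtr_CIT library 1 or 3 or sgNop16_CIT library 2 (adjusted p up to 0.0732).

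Xbp1 (ENSMUSG00000020484) encodes the factor that drives secretory pathway genes, and the table does not separate its spliced from its unspliced mRNA. It was at 145, 143 and 146 CPM in sgCtr_no and at 174, 173 and 172 CPM in sgCtr_CIT. The sgNop16 libraries held 116, 119.5 and 119 CPM without CIT and 164, 155 and 156 CPM with CIT. The 4 groups did not overlap: sgNop16_no was lowest, then sgCtr_no, sgNop16_CIT and sgCtr_CIT. CIT raised Xbp1 1.19-fold in sgCtr (0.26 ± 0.03, adjusted p = 5.76e-06) and 1.34-fold in sgNop16 cells (0.42 ± 0.03, adjusted p = 2.08e-08). The guide difference of -0.29 ± 0.03 without CIT (1.22-fold lower, adjusted p = 7.17e-05) was called in each of the 21 alternative fits. With CIT it was -0.13 ± 0.03 (adjusted p = 0.0275), a call that ended without any 1 of the sgCtr_CIT libraries or without sgNop16_CIT library 2 or 3 (adjusted p up to 0.124).

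Creb3l2 (ENSMUSG00000038648) encodes a membrane-bound factor of the CREB3 family that is released from the endoplasmic reticulum and acts on secretory genes. Its levels were 20.4, 20.7 and 20.0 CPM in sgCtr_no and 33.4, 32.9 and 33.9 CPM in sgCtr_CIT. With sgNop16 they were 14.2, 14.9 and 15.4 CPM without CIT and 26.4, 28.5 and 27.0 CPM with CIT. As for Xbp1, the 4 groups did not overlap, and they stood in the same order. CIT raised Creb3l2 1.64-fold in sgCtr (0.71 ± 0.07, adjusted p = 2.11e-07) and 1.84-fold in sgNop16 cells (0.88 ± 0.07, adjusted p = 2.46e-08). The guide difference was -0.45 ± 0.07 without CIT (1.37-fold lower, adjusted p = 0.00112) and -0.29 ± 0.07 with CIT (1.22-fold lower, adjusted p = 0.0148). The second call ended without sgCtr_CIT library 1 or 3 or sgNop16_CIT library 1 or 3 (adjusted p up to 0.0668). Xbp1 and Creb3l2 were each called in all 4 of these contrasts, up with CIT and down with the guide.

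Bhlha15 (ENSMUSG00000052271) encodes MIST1, a factor of secretory cells that acts downstream of XBP1. It stood at 5.40, 6.95 and 5.45 CPM in sgCtr_no and at 6.13, 4.89 and 5.71 CPM in sgCtr_CIT, which overlap. In sgNop16 cells it went from 3.005, 3.92 and 3.92 CPM without CIT to 4.47, 6.50 and 5.23 CPM with CIT. The sgNop16_no libraries were lowest and overlapped with no other group. The guide difference without CIT was -0.72 ± 0.18 (1.64-fold lower, adjusted p = 0.0403). It was lost in 9 of the 12 fits with a library dropped (largest adjusted p 0.172), where the difference ranged from -0.78 to -0.58, and with 3 of the other processing choices. CIT changed Bhlha15 by 0.58 ± 0.18 in sgNop16 cells (adjusted p = 0.0178), which was lost when sgNop16_no library 1 or sgNop16_CIT library 2 was dropped (largest adjusted p 0.11). In sgCtr cells the change was -0.09 ± 0.18 (adjusted p = 0.746), with an interval of -0.44 to 0.26.

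Ell2 and Eaf2 encode an RNA polymerase II elongation factor and its binding partner, and ELL2 favours the secreted form of the heavy chain mRNA in plasma cells. Ell2 (ENSMUSG00000001542) was at 177, 169.6 and 171 CPM in sgCtr_no and at 157, 159 and 167 CPM in sgCtr_CIT. With sgNop16 it was at 188, 177 and 189 CPM without CIT and at 157, 160.4 and 166 CPM with CIT. The shift with CIT was small and went down with both guides, without overlap between libraries. It was -0.20 ± 0.04 in sgNop16 (adjusted p = 0.000389) and -0.10 ± 0.04 in sgCtr cells (adjusted p = 0.0393). The latter was lost on dropping sgCtr_no library 1 or 3 or sgCtr_CIT library 1 or 2, and with 4 of the other processing choices (largest adjusted p 0.168). The guide differences of Ell2 were 0.10 ± 0.04 without CIT (adjusted p = 0.208) and between -0.07 and 0.07 with CIT.

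Eaf2 (ENSMUSG00000022838) was near the lower end of what was tested, with 36 to 101 counts per library. They were 1.56, 1.62 and 1.91 CPM in sgCtr_no and 1.05, 1.16 and 0.791 CPM in sgCtr_CIT. With sgNop16 they were 1.29, 2.18 and 2.37 CPM without CIT and 0.970, 0.905 and 0.992 CPM with CIT. Stimulated libraries were below unstimulated ones with each guide. CIT changed Eaf2 by -1.02 ± 0.29 in sgNop16 cells (2.03-fold lower, adjusted p = 0.0115), which was lost when sgNop16_no library 3 was dropped (adjusted p = 0.053). The fall of -0.76 ± 0.29 in sgCtr cells had an adjusted p of 0.0482, lost in 11 of the 12 fits with a library dropped (largest adjusted p 0.159) and in each of the 8 other fits that kept the gene. Its guide differences were 0.19 ± 0.29 without and -0.07 ± 0.30 with CIT, neither called, with intervals of -0.37 to 0.75 and -0.65 to 0.52.

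Mzb1 (ENSMUSG00000024353) encodes a chaperone-like protein of the endoplasmic reticulum that helps assemble IgM. It was at 224, 219.6 and 222 CPM in sgCtr_no and at 206, 212 and 207 CPM in sgCtr_CIT. In sgNop16 cells it was at 193, 195 and 205 CPM without CIT and at 230.1, 223 and 223 CPM with CIT. CIT thus moved it down with the control guide and up with the Nop16 guide, without overlap of libraries in either. The changes were -0.09 ± 0.03 in sgCtr (adjusted p = 0.0234) and 0.19 ± 0.03 in sgNop16 cells (adjusted p = 9.69e-05). The sgCtr call was lost on dropping sgCtr_no library 1 or sgCtr_CIT library 1 or 3, and with 2 of the other processing choices (largest adjusted p 0.146). The guide difference was -0.17 ± 0.03 without CIT (1.12-fold lower, adjusted p = 0.00515) and 0.11 ± 0.03 with CIT (1.08-fold higher, adjusted p = 0.0374). The latter was lost in 11 of the 12 fits with a library dropped and with 3 of the other processing choices (largest adjusted p 0.147). In the GRCm38 annotation 57.2% of the Mzb1 exon bases are shared with a gene model named SPATA24 on the same strand, which held 98 counts in sgNop16_no library 1 and at most 7 in the other libraries, against 8143 to 10836 for Mzb1.

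Txndc5 (ENSMUSG00000038991) encodes a disulfide isomerase of the endoplasmic reticulum that is abundant in plasma cells. It was at 218, 209 and 219.6 CPM in sgCtr_no and at 179.5, 178 and 167 CPM in sgCtr_CIT. With sgNop16 it was at 209, 200.3 and 205 CPM without CIT and at 162, 169.8 and 166 CPM with CIT. Stimulated libraries lay below unstimulated ones with each guide, and the log2 change with CIT was -0.30 ± 0.03 in each (adjusted p = 2.48e-06 and 2.94e-06). The guide differences of -0.07 ± 0.03 without and -0.08 ± 0.03 with CIT were not called (adjusted p = 0.333 and 0.263). On the opposite strand 5.0% of its exon bases overlap Bmp6 and 6.9% overlap Gm31834, which held at most 6 and 56 counts in a library, and no source used here says whether the counting used strand.

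Sdc1 (ENSMUSG00000020592) encodes syndecan-1, or CD138, the surface proteoglycan used to sort plasma cells, and it was almost not detected. Its counts were 0 in the 3 sgCtr_no libraries, 0, 0 and 4 in sgCtr_CIT, 7, 0 and 0 in sgNop16_no and 6, 5 and 4 in sgNop16_CIT. A sequenced fragment seems to be worth about 4 of the deposited counts, though this is uncertain, so these would be at most about 4 fragments a group. On that estimate a floor of 3 fragments is 12 counts over a group, and sgNop16_CIT, with 15, was the group above it. No fold is given, since the other groups were at or under the floor, which covers counting error only. The promoter window of Sdc1 held 1 CCACG and 1 CCAAT match.

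**Figure D2:**
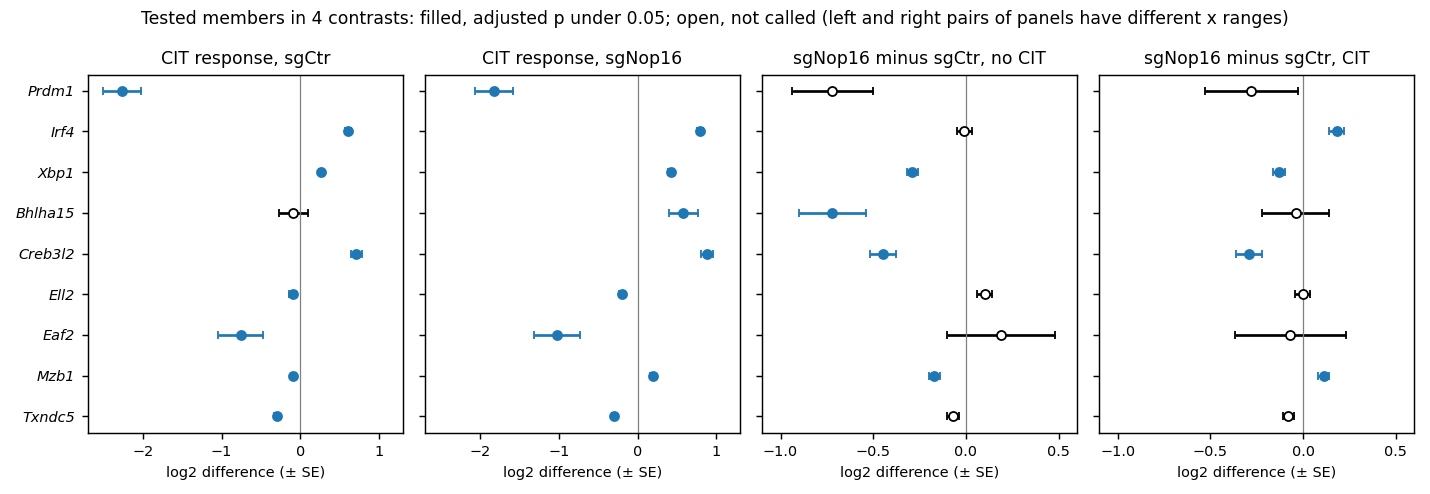
Log2 difference ± SE of the 9 tested members in the 4 contrasts, filled where the adjusted p was under 0.05; the first 2 panels and the last 2 have different x ranges. Prdm1 lies far left in both CIT panels, at -2.26 and -1.82, and in the unstimulated guide panel the filled points all lie left of 0.

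The difference between the CIT responses of the 2 guides was tested directly. It was called for Mzb1, 1 of the 9 members, where 2.13% of all tested genes were called, 0.881% with the higher and 1.25% with the lower response in sgNop16. Its response was higher by 0.28 ± 0.04 on the log2 scale with sgNop16 (adjusted p = 0.00254, and at most 0.0132 in the 20 alternative fits). At an unadjusted p under 0.05, which 13.3% of all tested genes were under, there were 4 members. Beside Mzb1 these were Xbp1 (0.17 ± 0.05, adjusted p = 0.0754), Irf4 (0.19 ± 0.06, adjusted p = 0.105) and Bhlha15 (0.67 ± 0.25, adjusted p = 0.227). Each had the higher response in sgNop16 cells, and Bhlha15 was not called for CIT in sgCtr cells. DESeq2 called 3 members, which were Mzb1, Xbp1 and Irf4. For Prdm1 the difference was 0.44 ± 0.33 (95% interval -0.21 to 1.09), for Creb3l2 0.16 ± 0.09 (-0.02 to 0.35) and for Eaf2 -0.26 ± 0.41 (-1.07 to 0.55), none called. For Ell2 it was -0.10 ± 0.05, and for Txndc5 the interval ran from -0.10 to 0.10.

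**Figure D3:**
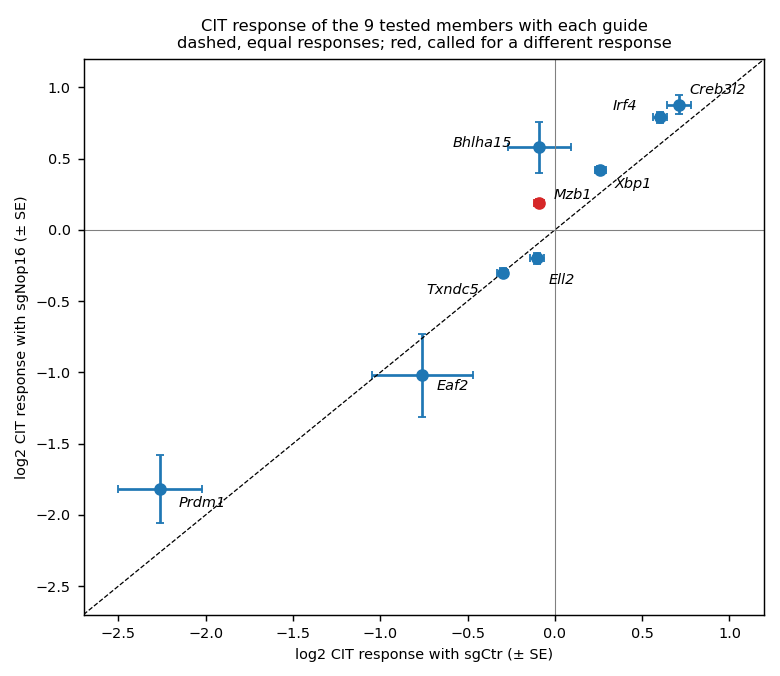
CIT response on the log2 scale with sgNop16 (y axis) against sgCtr (x axis) for the 9 tested members, with SE bars and a dashed line of equal responses. Mzb1, in red, was called for a different response, at -0.09 with sgCtr and 0.19 with sgNop16; the 2 axes share no libraries.

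Divided by the exon length of each gene in the GRCm38 annotation, the members spanned a wide range of levels per kb. In sgCtr_no the order was Mzb1 at 183 CPM per kb, Txndc5 at 48.0, Xbp1 at 44.5, Irf4 at 26.4, Ell2 at 17.6, Creb3l2 at 2.80, Bhlha15 at 1.70, Prdm1 at 1.67 and Eaf2 at 0.389, with Sdc1 at 0. The libraries of Bhlha15 and Prdm1 overlapped, and those of all other neighbours in this order were apart. The chaperone genes and Xbp1 thus stood at the top and the gene of Blimp-1 near the bottom. In sgCtr_CIT, Xbp1 (53.2 CPM per kb) and Irf4 (39.9) came before Txndc5 (38.9), with the libraries of Irf4 and Txndc5 overlapping. Prdm1 (0.349) there overlapped with Eaf2 (0.229).

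The genes whose course over the 12 libraries was nearest were ranked by the root mean square difference of log2 CPM, each gene centred on its mean, among 10653 genes of at least 1 CPM. Nearest to Irf4 were Tnfaip3, an NF-κB inhibitor (0.041 log2 units), and Dnaaf2 (0.049), beside a spread of 0.353 for Irf4 itself. Tnfaip3 went from 122 ± 0.990 to 189 ± 0.903 CPM with CIT in sgCtr and from 124 ± 1.86 to 214 ± 4.78 CPM in sgNop16 cells (n = 3 each). Nearest to Xbp1 were Pik3r2, Bicra and Srebf1, a lipid synthesis factor (0.060 each, spread of Xbp1 0.204). Nearest to Prdm1 were Prox1 (0.270), Nebl (0.290) and Cobll1 (0.305, spread of Prdm1 1.068). The 12 libraries share the CIT states and the guides, and the likeness is a description.

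Genes of the B cell state and known targets of Blimp-1 moved with CIT in both directions. Of 14 tested, 7 rose and 3 fell in sgCtr cells and 6 rose and 5 fell in sgNop16 cells. Over all tested genes 20.4% rose and 20.9% fell in sgCtr, and 18.9% and 18.2% in sgNop16 cells. Ciita, the MHC class II transactivator, rose by 2.69 ± 0.03 and 2.42 ± 0.03, and Bach2, a repressor of Prdm1, by 1.03 ± 0.04 and 1.06 ± 0.04. Myc fell by 1.21 ± 0.03 and by 0.92 ± 0.03, and Ets1 by 0.75 ± 0.03 and by 0.79 ± 0.03. Pax5, chosen after its values were seen as the B cell identity factor that Blimp-1 represses, was not called (0.04 ± 0.04 and -0.01 ± 0.04). Its level was 236 to 247 CPM in the 4 group means. With the guide, 3 of the 14 were higher and 1 lower without CIT, and 2 higher and 5 lower with CIT. Of all tested genes 1.79% were higher and 1.53% lower without CIT, and 3.39% and 2.77% with CIT. Myc was higher by 0.31 ± 0.03 with CIT (adjusted p = 1.25e-05), and Ets1 was lower in both states, by log2 differences of -0.29 ± 0.03 and -0.33 ± 0.03.

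Of the other plasma cell markers and factors that could be tested, more rose than fell with CIT. Tnfrsf17, Epcam and Ly6c1 were not tested, with at most 21, 5 and 0 counts in a group. Of 19 tested of 22, 11 rose and 3 fell in sgCtr and 12 rose and 5 fell in sgNop16 cells, with medians of 0.35 and 0.28. Over all tested genes 20.4% rose and 20.9% fell in sgCtr, and 18.9% and 18.2% in sgNop16 cells. Cxcr4, the receptor that guides plasma cells to bone marrow, rose by 1.00 ± 0.04 and 0.99 ± 0.04, and Zbtb20, a factor of plasma cell survival, by 1.24 ± 0.06 and 0.84 ± 0.06. Mcl1, a survival gene of the BCL2 family, fell by 0.63 ± 0.03 and by 0.78 ± 0.03. Cd38 fell by 0.86 ± 0.16 in sgNop16 cells. Ccr10 fell by 1.22 ± 0.38 in sgCtr cells, a call lost in 2 of the 12 fits with a library dropped. Jchain, which joins IgM and IgA units, fell by 0.74 ± 0.14 with each guide. Without CIT it was at 10.9 ± 0.938 CPM in sgNop16_no against 16.05 ± 2.56 CPM in sgCtr_no, a difference of -0.55 ± 0.14 (adjusted p = 0.0358) which was lost in 5 of the 12 fits with a library dropped and with 2 of the other processing choices (largest adjusted p 0.169). With the guide 2 were higher and 3 lower without CIT, beside 1.79% and 1.53% of all tested genes (3.39% and 2.77% with CIT). Lag3, an inhibitory receptor, was higher by 0.72 ± 0.12 (adjusted p = 0.00202), a call that held in the 12 fits with a library dropped. The lower calls of Il6ra (-0.34 ± 0.08) and Pou2af1 (-0.14 ± 0.03) were lost in 6 and 4 of the 12. There were 0 higher and 5 lower with CIT (1 higher and 5 lower at an unadjusted p under 0.05, beside 18.1% of all tested genes, and 0 higher and 5 lower by DESeq2), Mcl1 (-0.24 ± 0.03) and Itga4 (-0.19 ± 0.03), an integrin chain, among them.

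The list of secretory pathway genes tied to XBP1, ATF6 and IRE1 divided evenly in sgCtr cells and leaned upward in sgNop16 cells. It also holds genes of the regulators, Ern1 (IRE1), Atf6 and Atf6b, and Atf6 and Atf6b stand in the CREB3 and ATF6 list too. Of 45 tested, 14 rose and 14 fell with CIT in sgCtr, and 20 rose and 7 fell in sgNop16 cells. Over all tested genes 20.4% rose and 20.9% fell in sgCtr, and 18.9% and 18.2% in sgNop16 cells. Sec11c, a signal peptidase subunit, rose by 0.72 ± 0.04 and 0.69 ± 0.04, and Edem1, which sends misfolded proteins to degradation, by 0.41 ± 0.04 and 0.44 ± 0.04. Sel1l, of the degradation ligase, fell by 0.98 ± 0.03 and by 0.76 ± 0.03. Without CIT 0 were higher and 1, Sel1l (-0.21 ± 0.03), lower with the Nop16 guide. At an unadjusted p under 0.05 there were 8 of 45, all lower, or 17.8% beside 14.6% of all tested genes, and DESeq2 called 0 higher and 3 lower. With CIT 7 were higher and 1 lower, where 3.39% of all tested genes were called higher and 2.77% lower. A higher response with sgNop16 was called for 7, beside 0.881% of all tested genes. Hyou1, a chaperone, went from 225 ± 3.13 to 178 ± 2.16 CPM in sgCtr and from 209 ± 4.58 to 217 ± 4.11 CPM in sgNop16 cells (difference of responses 0.39 ± 0.04, adjusted p = 9.46e-05).

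The families of single members gave smaller counts. Called for CIT in either direction were 41.4% of all tested genes in sgCtr and 37.0% in sgNop16 cells. Of 16 tested disulfide isomerase genes 6 rose and 6 fell with CIT with each guide. Pdia4, like Txndc5, fell, by 0.63 ± 0.04 and by 0.49 ± 0.04, while Erp29 rose by 0.52 ± 0.04 and 0.60 ± 0.04. Of 16 elongation and 3′ end processing genes 4 rose and 5 fell in sgCtr and 2 rose and 6 fell in sgNop16 cells. Eaf1, the paralogue of Eaf2, fell by 0.98 ± 0.03 and by 0.99 ± 0.03, from 204 ± 3.54 to 103 ± 2.86 CPM in sgCtr cells. Cstf2, a cleavage factor subunit that affects the choice of heavy chain mRNA end, fell by 0.49 ± 0.03 and by 0.34 ± 0.03. In edgeR's test 0 of these 16 were called for a guide difference in either state (3 at an unadjusted p under 0.05 in each, 1 higher and 2 lower, beside 14.6% of all tested genes without and 18.1% with CIT, and 1 in each by DESeq2).

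Among 14 IRF family genes and IRF4 partners 6 rose with CIT with each guide, and 3 fell in sgCtr and 4 in sgNop16 cells. Over all tested genes 20.4% rose and 20.9% fell in sgCtr, and 18.9% and 18.2% in sgNop16 cells. Ikzf3, which encodes Aiolos, rose by 1.54 ± 0.03 and 1.44 ± 0.03, and Batf3 fell by 1.26 ± 0.06 and by 1.19 ± 0.06. Irf8, which opposes plasma cell fate, rose from 153 ± 4.44 to 273 ± 15.1 CPM in sgCtr and from 176 ± 7.74 to 219 ± 6.74 CPM in sgNop16 cells. With the guide it was higher without CIT by 0.20 ± 0.04 (adjusted p = 0.0181, lost in 4 of the 12 fits with a library dropped) and lower with CIT by a log2 difference of -0.32 ± 0.04 (adjusted p = 0.000327). The CREB3 and ATF6 list leaves out Creb3l2 itself and holds, beside the factors, the proteases Mbtps1 and Mbtps2. Of its 7 tested genes 0 rose and 3 fell in sgCtr cells, where 41.4% of all tested genes were called. Those that fell were Atf6 (-0.27 ± 0.05), Atf6b (-0.29 ± 0.05) and the protease gene Mbtps2 (-0.37 ± 0.07). In sgNop16 cells 1 rose and 2 fell, where 37.0% of all tested genes were called. DESeq2 gave the same counts for this list. The rise of Mbtps1, a protease that cuts such factors (0.16 ± 0.06, libraries overlapping), and the fall of Atf6b in sgNop16 cells (-0.15 ± 0.05) were each lost in 5 of the 12 fits with a library dropped (largest adjusted p 0.209 and 0.101).

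Of 12 tested syndecan and heparan sulfate genes 6 rose and 3 fell with CIT with each guide. Over all tested genes 20.4% rose and 20.9% fell in sgCtr, and 18.9% and 18.2% in sgNop16 cells. Sdc4 and Sdc3 were both well above Sdc1: Sdc4 was at 38.5 ± 1.49 CPM and Sdc3 at 14.0 ± 1.73 CPM in sgCtr_no. Sdc2 held 0 counts in every group. Sdc3 rose by 0.91 ± 0.09 in sgCtr cells and Sdc4 fell by 0.49 ± 0.06. Xylt1, which starts glycosaminoglycan chains, went from 9.91 ± 2.29 to 174 ± 2.77 CPM. In edgeR's test Sdc4 was the gene of this list called for a guide difference. It was higher with sgNop16 by 0.38 ± 0.06 without and 0.41 ± 0.06 with CIT (adjusted p = 0.00166 and 0.000747). Of all tested genes 3.32% were called without and 6.16% with CIT. At an unadjusted p under 0.05 there were 2 of the 12 without CIT, beside 14.6% of all tested genes. With CIT there were 5, 3 higher and 2 lower, beside 18.1%. DESeq2 called 1 higher without CIT, and 1 higher and 1 lower with CIT. Of 3 tested MIST1 targets 1, Rab3d, rose in sgCtr cells (1.48 ± 0.32), where 41.4% of all tested genes were called. It was weakly expressed, going from 1.39 ± 0.354 to 3.88 ± 1.11 CPM. In sgNop16 cells 2 of the 3 rose, Rab3d and Copz2, where 37.0% of all tested genes were called. Copz2 went from 0.250 ± 0.145 to 1.06 ± 0.518 CPM there, a call lost in 3 of the 12 fits with a library dropped (adjusted p up to 0.145).

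**Figure D4:**
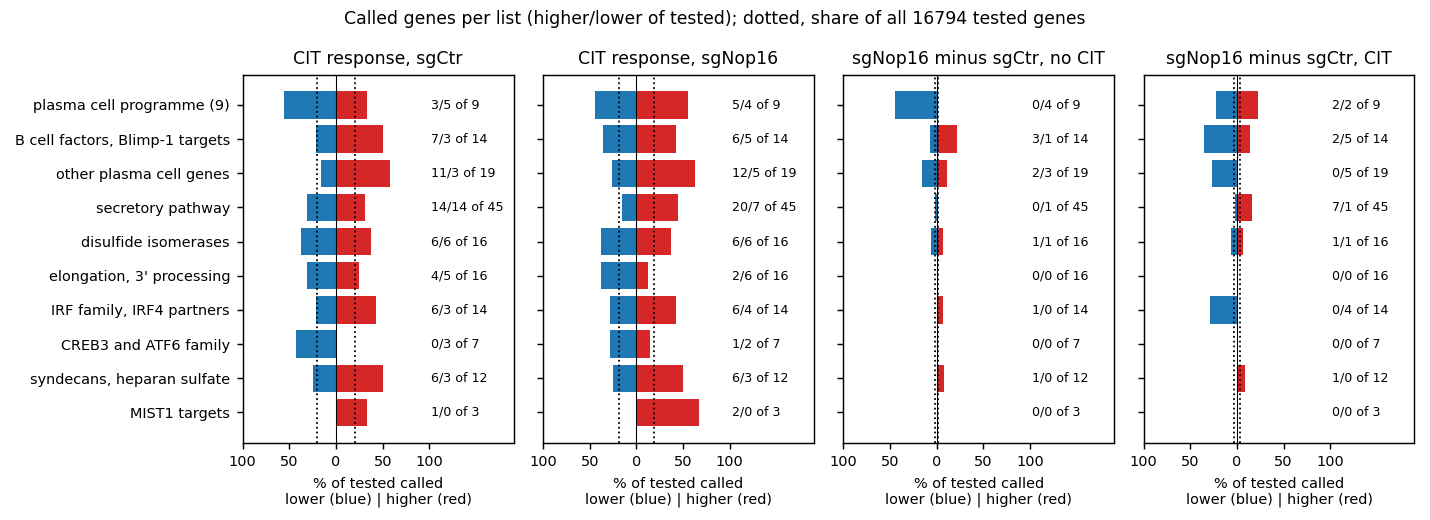
Share of the tested genes of each list called higher (red, right) or lower (blue, left) in the 4 contrasts, with the counts higher/lower of tested at the right and dotted lines at the shares of all 16794 tested genes. In the unstimulated guide panel the 9 members show 4 lower and 0 higher, and the 45 secretory pathway genes 1 lower.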

How the data were processed

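RNA of 12 libraries was read as 1 table. The authors deposited estimated counts per Ensembl gene, whole numbers not scaled to library size. HISAT2 2.2.1, StringTie 2.2.1 and GRCm39 are named without roles, per the submitters' processing notes; the annotation and strand setting are not known here. Low values were in excess at 4 beside 5 (746 genes against 334 in sgCtr_no library 1), so 1 fragment seems to be worth about 4 counts. In that library the value 1 was more frequent (789) and 3 was close (661), so this worth is uncertain. Symbols (51948 of 56941 genes), exon lengths and overlaps came from a GRCm38 annotation, and promoter windows from RefSeq; 9 of the 10 members had a window that is shown or searched here.

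Differences were tested with edgeR 4.0.16 in R 4.3.3 (filterByExpr, TMM factors between 0.985 and 1.013, quasi-likelihood F test, 1 mean per group over 12 libraries), with Benjamini-Hochberg adjustment over 16794 genes. SE is the log2 difference over the square root of F. The script recovered changes planted in simulated data. These were larger than many differences given here and lay in genes above a set mean count. Smaller changes and the weakest genes were not covered. DESeq2 1.42.0 and the other alternatives are in the closing section. The members and the 9 further lists (149 distinct genes, some in more than 1 list) were chosen with earlier results of these data known. From each list, up to 3 called genes with the smallest p in each direction could be named, and 3 nearest genes (pseudocount 0.1 CPM) for Prdm1, Irf4 and Xbp1; some genes under these rules are not reported here. Numbers shared by replicates are not stated to pair libraries.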

Additional observations from a re-analysis of the deposited data

Results flagged for a closer look

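Results are given here where the CIT response differed between the 2 guides by the test of the difference itself, over 16794 genes. Each value is the log2 response in sgNop16 minus that in sgCtr cells. Mzb1, at 0.28, was the member of the plasma cell programme so called. The B cell factors called were Irf8 (-0.52), Id3 (-0.45), Ciita (-0.27), Myc (0.29) and Spib (-0.15). The calls of Mzb1, Irf8, Id3, Ciita and Myc, and those of Hyou1 (0.39) and Itga4 (-0.24), held in the 12 fits that left out a library and under the 8 other settings. The other secretory genes named were Hsp90b1 (0.17), whose call ended without sgCtr_no library 1 (adjusted p = 0.0534), and Hspa5 (0.18), whose call ended in 7 of the 12 fits. Zbtb20 (-0.41) and Spib lost their calls in 5 of the 12 and in 2 of the 8 other settings. Calls were lost for Mcl1 (-0.15) in 7 of the 12 fits, Pou2f2 (-0.21) in 9 and Pdia3 (0.12) in 12. The highest adjusted p among these was 0.154, for Pdia3.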

How the results depend on the processing

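Alternatives were RLE size factors, library totals without TMM, no low-count filter, 5 CPM in 3 libraries, a replicate block, only the groups compared, DESeq2, counts divided by 4 and leaving out each library, and, added after the data were seen, a robust quasi-likelihood fit. The 8 members called for CIT in sgCtr cells became 5 with library totals, 5 with the 5 CPM filter and 5 to 8 without 1 library. Under the 5 CPM filter Eaf2 was left out, and the better expressed Ell2 and Mzb1 lost their calls. The 4 called for the guide with CIT became 0 to 4 without 1 library. The 1 called for the interaction became 3 with DESeq2. The counts for CIT in sgNop16 cells (9) and for the guide without CIT (4) were 8 to 9 and 3 to 4 without 1 library. Over all genes, 558 calls for the guide without CIT became 927 with DESeq2 and 352 to 516 without 1 library, and 1034 with CIT became 617 to 981. The 358 interaction calls became 207 without a filter, 767 with DESeq2 and 215 to 277 without 1 library.

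Signs turned for differences that were not called. For the guide with CIT, Ell2 was at 5.7e-05 without a filter and at -0.02 to 0.03 without 1 library, where Bhlha15 ranged from -0.20 to 0.07, Eaf2 from -0.21 to 0.05 and Prdm1 from -0.52 to 0.04. For the guide without CIT, Irf4 was at 0.0045 with library totals and at -0.03 to 0.02 without 1 library. For CIT in sgCtr cells, Bhlha15 ranged from -0.16 to 0.04 without 1 library. For the interaction, Txndc5 was at 0.0026 without a filter and at -0.03 to 0.02 without 1 library. Apart from the settings named, the cause was not tested.

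Same-numbered libraries of different groups had correlations of deviations between -0.174 and 0.143, so the numbers were not taken as pairs. With the replicate block 7, 9, 3, 3 and 1 members were called for CIT in sgCtr, CIT in sgNop16, the guide without CIT, the guide with CIT and the interaction. Over all genes the block gave 6803, 6103, 477, 920 and 278 calls. Low counts left Sdc1 untested, and Prdm1, Bhlha15 and Eaf2 were also weakly expressed.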
